A study of Mus musculus with 6 samples.

Results

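The mitochondrial genome carries the only protein genes of an animal cell that lie outside the nucleus, and the 13 rows described here are its protein genes as measured in mouse aorta. They were chosen as every row of the expression table whose gene name begins with mt-, which gave 13 of 35275 rows. All 13 are protein genes, so among the RNA classes of the mitochondrial genome its ribosomal and transfer RNAs were not analysed here. RNA from whole aorta was sequenced in 6 libraries, 3 labelled Wild-type and 3 labelled EC-Jag1KO, a genotype in which Jagged1, a ligand of Notch receptors, is deleted in mature endothelial cells. The series asked how that loss affects the vessel and its smooth muscle. The sources used here do not name the Cre driver or the strain, age or sex of the mice, and do not state that each library came from another animal, so p-values measure only the spread between these samples.

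Mitochondrial DNA is a small circle transcribed from both strands as long precursor RNAs. Transfer RNAs that lie between most of its genes are cut out, which frees the messenger RNAs and ribosomal RNAs. Most of the messengers receive a short poly(A) tail. The proteins are core subunits of the respiratory chain and of the ATP synthase: complex I takes electrons from NADH, complex III passes them to cytochrome c, complex IV passes them to oxygen, and complex V makes ATP. Each of these complexes also needs subunits encoded in the nucleus. Fragments of mitochondrial DNA have been copied into nuclear chromosomes in the course of evolution, and such nuclear copies can match their source so closely that a short read fits both places.

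The 13 genes gave 625366 to 1164554 reads in genes per library, out of 19889910 to 25914325. Values are FPKM, fragments scaled to gene length and library size, so levels can be compared per length only for genes whose reads fit no other place. Jag1 itself stood at 9.86, 10.6 and 16.9 FPKM in Wild-type libraries against 13.5, 9.42 and 19.6 FPKM in EC-Jag1KO libraries, which overlap, in a tissue where other cells than endothelium also express it, so its level does not check the labels. Xist, the RNA of the inactive X chromosome, was high in Wild-type 3 (26.9 FPKM) and EC-Jag1KO 3 (40.7 FPKM) and at or below 0.0738 FPKM in the other 4 libraries, so each genotype holds libraries of both kinds. EC-Jag1KO 3 stood apart from the other libraries on the first principal component, which held 32.0% of the variance. In whole tissue, fewer cells of a type and less RNA per cell cannot be told apart.

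A read can be placed in a mitochondrial gene with certainty only where its sequence occurs nowhere else, so sequences are shown first. Gene positions are those of the deposited table in mm10, and the same as in GENCODE M21, from whose transcripts (GRCm38) the sequences were read. A stretch of 4662 bases of mitochondrial DNA, MT positions 6381 to 11042, has a counterpart of 4663 bases on the minus strand of chromosome 1, chr1:24611535-24616197, where 7 pseudogenes are annotated. Its ends are those of the outermost annotated pseudogenes. By position it takes in the whole of mt-Co2, mt-Atp8, mt-Atp6, mt-Co3, mt-Nd3 and mt-Nd4l, and parts of mt-Co1 and mt-Nd4. Sequence between the pseudogenes was not compared. For mt-Atp8, apart from its overlap with mt-Atp6, a copy is therefore inferred from its neighbours only. mt-Nd1, mt-Nd2, mt-Nd5, mt-Nd6 and mt-Cytb lie outside it.

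The start of the annotated copy in mt-Co1 and the nearly perfect match are seen in the first 60 bases of the pairs that follow. They are read 5′ to 3′ on the strand of the gene, with capitals for bases that differ within a pair. The mt-Co1 line starts at base 1054 of that gene, where the annotated pseudogene Gm29216 begins (MT 6381 to 6440 against chr1:24616138-24616197, minus strand). The mt-Nd3 lines are the starts of gene and copy (MT 9459 to 9518 against chr1:24613060-24613119, minus strand). The mt-Atp6 lines (MT 7927 to 7986 against chr1:24614592-24614651, minus strand) do not differ. The last pair sets mt-Co2 (MT 7013 to 7072) against a second, more diverged copy on chromosome 2 (chr2:22587903-22587962, minus strand).
mt-Co1: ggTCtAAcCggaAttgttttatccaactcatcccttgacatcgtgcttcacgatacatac
Gm29216: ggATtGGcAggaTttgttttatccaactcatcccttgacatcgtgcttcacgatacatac
mt-Nd3: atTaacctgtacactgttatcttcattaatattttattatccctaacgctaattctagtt
Gm28438: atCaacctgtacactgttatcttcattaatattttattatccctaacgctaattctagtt
mt-Atp6: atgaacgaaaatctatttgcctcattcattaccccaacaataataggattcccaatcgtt
Gm10925: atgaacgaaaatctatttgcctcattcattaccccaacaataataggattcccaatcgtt
mt-Co2: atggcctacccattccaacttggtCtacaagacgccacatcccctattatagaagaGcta
Gm13341: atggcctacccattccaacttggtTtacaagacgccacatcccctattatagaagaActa

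Counted from the first base of the mitochondrial gene, mt-Nd3 and Gm28438 differ by T3C only, with 344 of 345 aligned bases identical. mt-Co1 and Gm29216 differ at 6 of 492 aligned bases, all within the line printed (T1056A, C1057T, A1059G, A1060G, C1062A and A1066T), and the remaining bases to the gene's end are identical. No base differed between mt-Co2 and Gm28661 (681 bases), mt-Atp6 and Gm10925 (678), mt-Co3 and Gm28437 (783), mt-Nd4l and Gm10222 (294), or mt-Nd4 and Gm28439 (876). The chromosome 2 copies are more diverged: Gm13340 has 97.6% identity to mt-Co1 over its whole length, Gm13341 has 97.6% identity to mt-Co2 with C25T and G57A among its differences, and Gm13339 has 96.7% identity to the end of mt-Nd2.

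Each gene was scanned with every window of 50 bases, and the share of windows found unchanged in another annotated transcript was counted. That share was 100% for mt-Co2, 99.9% for mt-Co3, 99.5% for mt-Atp6, 98.8% for mt-Nd4l and 98.0% for mt-Nd3. It was 62.2% for mt-Nd4, 51.1% for mt-Co1, 8.19% for mt-Nd2 and 7.61% for mt-Nd5. It was 0% for mt-Nd1, mt-Nd6, mt-Cytb and mt-Atp8. With windows of 150 bases the first 5 genes stayed at 97.0% or more, mt-Nd4 stood at 59.2% and mt-Co1 at 23.6%, and mt-Nd2 and mt-Nd5 fell to 0%. mt-Atp8 lies between the copied mt-Co2 and mt-Atp6, but no other annotated transcript held a whole window of it. Nuclear DNA outside annotated transcripts was not searched.

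The 13 genes fell into a high and a low set that followed this map. The 7 genes that lie outside the copied stretch or reach beyond it were at 940 to 12286 FPKM in the 6 libraries, and the 6 genes wholly inside it were at 0 to 48.7 FPKM. Within a library, the lowest of the 7 stood 35.1 to 53.6 times above the highest of the 6, in Wild-type and EC-Jag1KO aorta alike. This grouping was made after the levels had been seen, so it is a description and carries no test. The sources used here do not give how reads that fit several places were counted, and whether that sets the low levels was not tested.

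**Figure D1:**
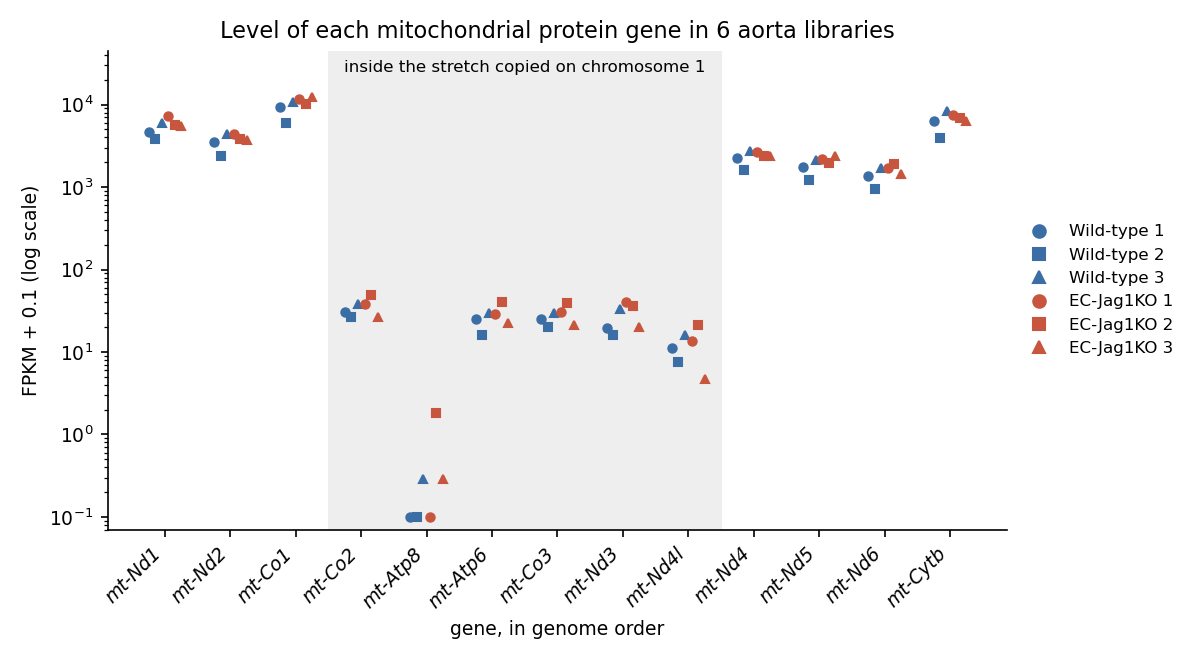
Level of each of the 13 genes (FPKM + 0.1 on a log axis) in the 3 Wild-type libraries (blue) and the 3 EC-Jag1KO libraries (red), in the order of the genes along the mitochondrial genome. The 6 genes in the grey band lie wholly inside the stretch copied on chromosome 1 and reach at most 48.7 FPKM, while the 7 others stay at 940 FPKM or more in every library.

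The position of each gene against its copied share is plotted from the same values. mt-Nd4, of which 876 of 1378 bases lie in the chromosome 1 stretch, was in the range of the genes outside that stretch. mt-Co1, with 492 of 1545 bases in it, was above all of them in 6 of 6 libraries. mt-Atp8 is the exception to the order of the plot, with no window in another transcript and the lowest level of all.

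**Figure D2:**
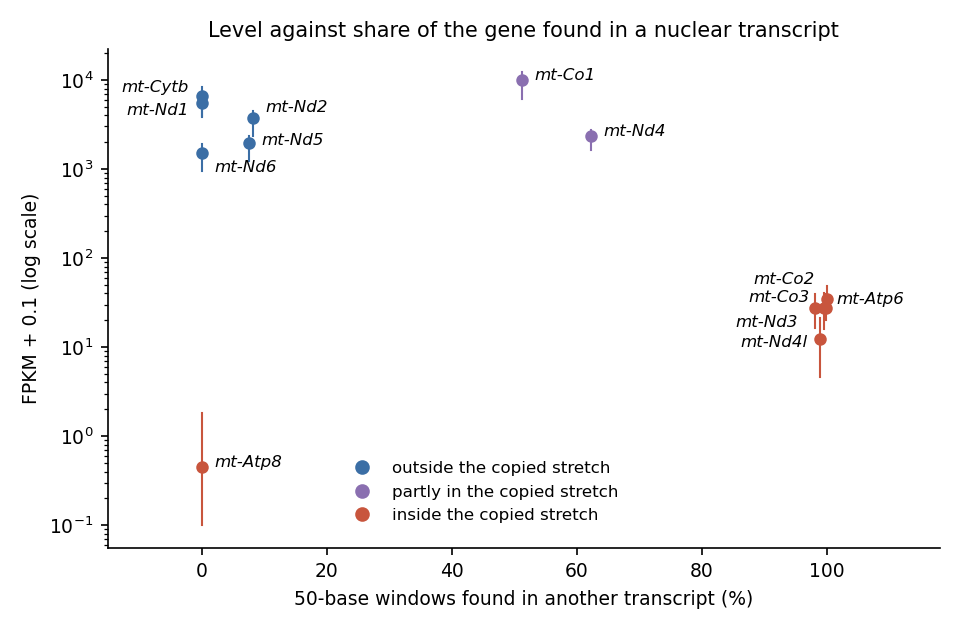
Mean level over the 6 libraries (points, FPKM + 0.1 on a log axis) with the lowest and highest library (lines) against the percentage of 50-base windows of the gene that occur unchanged in another annotated transcript. The 5 genes at 98.0% to 100% lie between 4.55 and 48.7 FPKM, and mt-Atp8 lies at the lower left.

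Among the high genes mt-Co1, the catalytic subunit of complex IV, was the most abundant. It had 9306, 6026 and 10898 FPKM in Wild-type libraries against 11577, 10080 and 12286 FPKM in EC-Jag1KO libraries, and it ranked 1 to 3 of all rows in each. Its mean of 10029 FPKM was the highest of the table, ahead of smooth muscle actin, Acta2, at 7080 FPKM. mt-Cytb, the cytochrome b of complex III, followed at 6413, 3901 and 8291 FPKM in Wild-type aorta against 7382, 6956 and 6278 FPKM in EC-Jag1KO aorta. For mt-Co1 the lowest library was Wild-type 2 and the highest EC-Jag1KO 3, while for mt-Cytb the highest was Wild-type 3.

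The other high genes encode membrane subunits of complex I. mt-Nd1, at the foot of the membrane arm, had 4681, 3850 and 6046 FPKM in Wild-type aorta against 7238, 5658 and 5532 FPKM in EC-Jag1KO libraries. mt-Nd2 had 3477, 2356 and 4355 FPKM against 4456, 3861 and 3680 FPKM. mt-Nd4, a proton-pumping subunit, had 2227, 1619 and 2749 FPKM against 2695, 2366 and 2406 FPKM. In all 3 genes Wild-type 2 was the lowest library, and Wild-type 3 lay within or above the range of the EC-Jag1KO libraries. mt-Nd5, the far end of the membrane arm, had 1739, 1212 and 2153 FPKM against 2216, 1954 and 2354 FPKM. mt-Nd6 had 1351, 940 and 1682 FPKM against 1711, 1881 and 1430 FPKM. It is the only 1 of the 13 on the minus strand of the reference, and its end overlaps mt-Nd5 by 14 bases. No source used here states the strand setting of the counting, so sense and antisense reads over mt-Nd6 cannot be told apart.

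The order from mt-Co1 through mt-Cytb, mt-Nd1, mt-Nd2, mt-Nd4, mt-Nd5 and mt-Nd6 was the same in 6 of 6 libraries. mt-Co1 and mt-Nd4 lie partly in the copied stretch, and how reads that fit several places were counted is not known. The levels of mt-Co1 and mt-Nd4 relative to their neighbours are therefore uncertain. Some neighbours were close: mt-Cytb exceeded mt-Nd1 by 1.01 to 1.37 times, mt-Nd4 exceeded mt-Nd5 by 1.02 to 1.34 times, and mt-Nd5 exceeded mt-Nd6 by 1.04 to 1.65 times. mt-Co2 followed mt-Nd6 after the gap and was above mt-Co3 in 6 of 6 libraries. mt-Co3 was above mt-Nd3 in 4 of 6 libraries and mt-Nd3 above mt-Atp6 in 3 of 6, so these 3 genes had no steady order. mt-Nd4l and then mt-Atp8 came last in all 6.

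In the low set, mt-Co2, the complex IV subunit that receives electrons from cytochrome c, had 30.8, 26.8 and 37.7 FPKM in Wild-type aorta against 38.3, 48.7 and 26.7 FPKM in EC-Jag1KO libraries. This rested on 460 to 663 reads, where mt-Co1 of the same complex had 233984 to 491902 reads. mt-Co3, the third core subunit of complex IV, had 24.8, 19.8 and 29.8 FPKM against 30.3, 39.0 and 21.2 FPKM. mt-Atp6, the proton channel subunit of complex V, had 24.7, 15.8 and 29.9 FPKM against 29.0, 40.5 and 22.2 FPKM. EC-Jag1KO 2 was the highest library in these 3 genes, and EC-Jag1KO 3 was the lowest of its group in each.

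mt-Nd3, a small complex I subunit, had 19.7, 16.1 and 33.0 FPKM in Wild-type aorta against 39.8, 35.7 and 20.2 FPKM in EC-Jag1KO libraries. mt-Nd4l, another small subunit of complex I, had 11.1, 7.50 and 15.98 FPKM against 13.7, 21.3 and 4.55 FPKM, on 35 to 126 reads. mt-Atp8, the smallest subunit of complex V encoded here, was listed at 0 in Wild-type 1, Wild-type 2 and EC-Jag1KO 1, where a count of 0 allows 3 reads, or 0.622, 0.585 and 0.672 FPKM. It had 1 read in Wild-type 3, 7 reads in EC-Jag1KO 2 and 1 read in EC-Jag1KO 3, so 9 reads in all. Such limits cover counting error only.

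Neighbours that share a messenger RNA were among the pairs that the map splits. mt-Nd4l and mt-Nd4 overlap by 7 bases and are known to be carried on 1 messenger. The level of mt-Nd4 was nevertheless 111 to 529 times that of mt-Nd4l, lowest in EC-Jag1KO 2 and highest in EC-Jag1KO 3. mt-Atp8 and mt-Atp6 also share a messenger and overlap by 43 bases. Both of these lie inside the copied stretch and both were in the low set. Level of mt-Co1 over mt-Co2, within complex IV, was 207 to 460, with the same 2 libraries at its ends.

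The chromosome 1 pseudogenes were themselves listed at 1.23 to 62.8 FPKM, the range of the low set and not of the high one. Gm28661, the copy of mt-Co2, had 37.3, 29.9 and 44.2 FPKM in Wild-type aorta against 49.7, 60.8 and 31.9 FPKM in EC-Jag1KO libraries, so mt-Co2 stood at 0.771 to 0.896 of its copy. mt-Atp6 stood at 0.521 to 0.645 of Gm10925, mt-Co3 at 0.902 to 1.14 of Gm28437, and mt-Nd4l at 0.759 to 1.70 of Gm10222. mt-Nd3, which has the 1 differing base near its start, stood at 3.89 to 16.4 times Gm28438. By contrast mt-Co1 stood at 174 to 476 times Gm29216 and mt-Nd4 at 104 to 164 times Gm28439. All 7 chromosome 1 copies were highest in EC-Jag1KO 2. Their values and those of the low mitochondrial genes are thus uncertain as to source, since reads of either could be listed under the other.

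On chromosome 2, Gm13340 was at 5.02 to 35.1 FPKM, Gm13341 at 1.95 to 23.5 FPKM and Gm13339 at 0.498 to 2.66 FPKM, each also highest in EC-Jag1KO 2. Of the 10 copies tested between genotypes with limma, 10 were nominally higher in EC-Jag1KO aorta, against 50% of all genes, with a median log2 fold change of 0.36. EC-Jag1KO 3 was below every Wild-type library for Gm28438, Gm13341 and Gm10222, and within the Wild-type range for the other copies. The copies share libraries, and reads can fit several places, so they are not 10 separate observations. None of the 10 reached an unadjusted p under 0.05 in limma, against 7.71% of all genes, and 0 had groups that did not overlap, against 13.6%.

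For no mitochondrial gene was a difference between genotypes detected beyond the spread of the libraries. Rows that averaged 1 FPKM or more over the 6 libraries were tested with limma on log2(FPKM + 1), with Benjamini-Hochberg adjustment over 12165 genes. All mitochondrial genes except mt-Atp8 passed this filter. Of the 12 tested, 0 passed an adjusted p of 0.05, as did 0% of all genes. 0 of 12 had an unadjusted p under 0.05, against 7.71% of all genes, and 0 of 12 had groups that did not overlap, against 13.6%. All 12 estimates were on the EC-Jag1KO side, against 50% of all genes, with a median log2 fold change of 0.31 beside -0.00022 for all genes tested. The 12 share precursor RNAs and libraries, so they are not 12 separate observations of a direction.

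The smallest adjusted p among them was that of mt-Nd5. Its log2 fold change was 0.39 with a standard error of 0.23, a 95% interval from -0.15 to 0.93 and an adjusted p of 0.747 in limma. An exact two-sided permutation test of mt-Nd5 gave p = 0.2, where 3 libraries against 3 cannot go below 0.1. For mt-Nd6, on the other strand, the log2 fold change was 0.37 (SE 0.24), and the exact permutation test gave the same p = 0.2. mt-Co1 had a log2 fold change of 0.41 with an interval from -0.23 to 1.05, and mt-Nd1 of 0.35 with an interval from -0.20 to 0.90. mt-Nd3 had the highest estimate, 0.47, with an interval from -0.28 to 1.21. mt-Nd4l had the lowest, 0.019, with an interval from -1.14 to 1.18. The remaining 6 genes were between 0.21 (mt-Nd4) and 0.37 (mt-Atp6), and their adjusted p in limma was between 0.805 and 0.909.

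**Figure D3:**
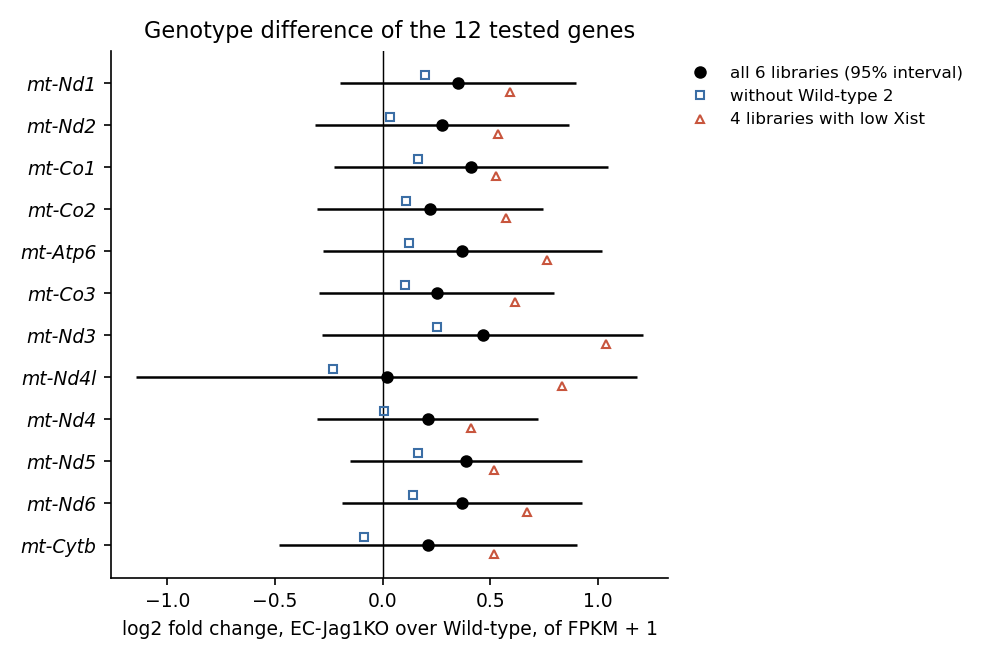
Log2 fold change of FPKM + 1, EC-Jag1KO over Wild-type, of the 12 tested genes in genome order (black points, 95% interval of limma as lines), with the estimate without Wild-type 2 (blue squares) and in the 4 libraries with low Xist (red triangles). Every interval from all 6 libraries spans 0, and every estimate moves toward or past 0 without Wild-type 2.

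By complex, the summed FPKM of the 7 complex I genes was 13514 ± 3518 in Wild-type aorta against 16524 ± 1607 in EC-Jag1KO aorta (mean ± SD, n = 3 each). The 3 complex IV genes summed to 8800 ± 2494 and 11382 ± 1107 FPKM, nearly all of it mt-Co1. Complex III, which is mt-Cytb alone, stood at 6202 ± 2203 and 6872 ± 557 FPKM. Complex V, with both genes inside the copied stretch, stood at 23.5 ± 7.2 and 31.2 ± 10.1 FPKM. Also inside it are mt-Co2 and mt-Co3 of complex IV and mt-Nd3 and mt-Nd4l of complex I, while mt-Co1 and mt-Nd4 are partly so. How reads of these genes that fit several places were counted is not known, so the sums are uncertain as measures of each complex. On a log2 scale the ratio of the group means was 0.29 for complex I, 0.15 for complex III, 0.37 for complex IV and 0.41 for complex V. It was 0.28 for the 12 genes of the plus strand and 0.34 for mt-Nd6. The groups overlapped in each of these sums.

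As a share of all reads in genes, the 13 genes took 3.68%, 2.49% and 4.53% in Wild-type libraries against 4.66%, 4.09% and 4.37% in EC-Jag1KO libraries. The means were 3.57% ± 1.03 and 4.37% ± 0.29 (SD, n = 3 each), a difference of 0.806 percentage points. Wild-type 2 was the lowest, and Wild-type 3 lay between the EC-Jag1KO libraries. Without Wild-type 2 the difference was 0.266 points and the median log2 fold change of the members was 0.11, and without Wild-type 3 these were 1.29 points and 0.50. Among the 4 libraries with low Xist, the Wild-type shares were 3.68% and 2.49% and the EC-Jag1KO shares 4.66% and 4.09%. In that comparison, chosen after the data were seen, the groups of 2 did not overlap in 12 of 12 genes, against 43.8% of all genes in the same fit. An unadjusted p under 0.05 in limma was found for 7 of the 12, against 11.1% of all genes, and the smallest adjusted p was 0.138. The 12 share precursor RNAs and libraries, so they are not 12 separate observations. Wild-type 3, left out here, had the highest share of its group. The 2 libraries with high Xist, 1 of each genotype, had 4.53% (Wild-type) and 4.37% (EC-Jag1KO), which allows no test.

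Wild-type 2 was the lowest library for 10 of the 12 tested genes, and EC-Jag1KO 3 for the other 2. The highest was EC-Jag1KO 2 for 5 genes, EC-Jag1KO 1 for 3, Wild-type 3 for 2 and EC-Jag1KO 3 for 2. Wild-type 2 was also lowest in the summed FPKM of 8 brown adipocyte markers, genes of heat-producing fat cells rich in mitochondria such as those around the aorta. That sum was 340, 51.4 and 600 FPKM in Wild-type aorta against 436, 292 and 262 FPKM in EC-Jag1KO libraries. Ucp1, the uncoupling protein that defines these cells, had 108, 8.74 and 263 FPKM against 144, 63.6 and 85.2 FPKM. None of the 8 was at 0 in all libraries. Estimates on the EC-Jag1KO side numbered 7 of 8, against 50% of all genes. An unadjusted p under 0.05 in limma was found for 0 of 8, against 7.71% of all genes. White adipocyte markers summed to 1642, 553 and 2548 FPKM against 2347, 1932 and 1019 FPKM, again lowest in Wild-type 2. The part of fat tissue in the mitochondrial levels was not tested.

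Markers of the smooth muscle that makes up most of the aortic wall summed to 14891, 14876 and 14204 FPKM in Wild-type aorta against 13160, 14027 and 11809 FPKM in EC-Jag1KO libraries, which do not overlap. Of 8 markers 0 passed the adjusted threshold in limma. An unadjusted p under 0.05 in limma was found for 3, all on the lower side: Smtn, Mylk and Lmod1. Groups did not overlap in 5 of the 8. Over all tested genes, 7.71% had an unadjusted p under 0.05 in limma and 13.6% had groups that did not overlap. These shares also apply to the marker lists that follow. Cardiomyocyte markers summed to 14.2, 9.06 and 25.7 FPKM in Wild-type aorta against 16.8, 43.1 and 18.5 FPKM in EC-Jag1KO libraries, which overlap. Of 7 tested, Myh7 (0.31 ± 0.34 against 3.54 ± 1.72 FPKM, groups that do not overlap, unadjusted p 0.000771 and adjusted p 0.284 in limma) was on the higher side at an unadjusted p under 0.05 and Ryr2 on the lower. Skeletal muscle markers summed to 4.78 to 7.44 and 5.50 to 5.88 FPKM, which overlap. Erythroid markers, of cells that carry no mitochondria when mature, summed to 1519, 740 and 1227 FPKM against 190, 444 and 919 FPKM. Of 5 tested, 4 had an unadjusted p under 0.05 in limma, all 4 globin genes on the lower side, with a median log2 fold change of -1.39 and groups that overlapped. These globin genes include near-identical copies, so the split of reads among them is uncertain. Endothelial markers (296 to 426 against 331 to 423 FPKM), adventitial fibroblast markers (1131 to 1392 against 1087 to 1360 FPKM), macrophage markers (165 to 204 against 189 to 221 FPKM) and neural and Schwann markers (10.1 to 12.9 against 10.5 to 11.99 FPKM) overlapped in their sums. In each of these 4 lists 1 gene had an unadjusted p under 0.05, on the higher side for Vwf, Pdgfra and Cd68 and on the lower for Prx, and none passed the adjusted threshold.

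**Figure D4:**
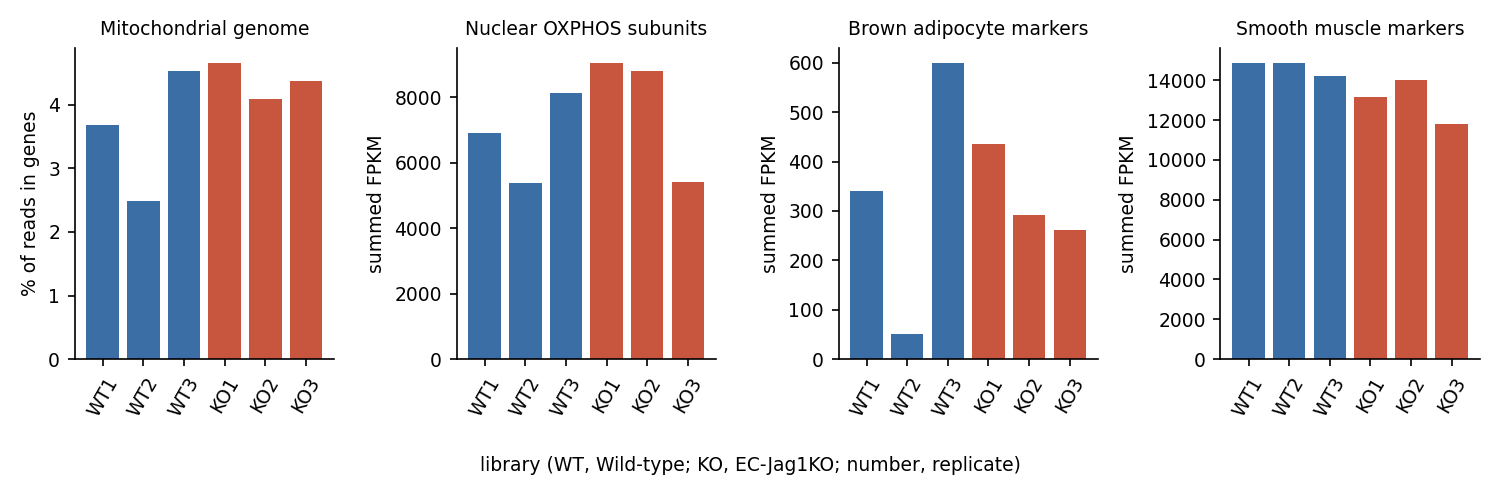
From left to right, the percentage of reads in genes on the mitochondrial genome and the summed FPKM of nuclear OXPHOS subunits, of brown adipocyte markers and of smooth muscle markers, in each Wild-type (blue) and EC-Jag1KO (red) library. Wild-type 2 is lowest in the first 3 panels, and EC-Jag1KO 3 is low in nuclear subunits (5424 FPKM) but not in mitochondrial reads (4.37%).

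The nuclear partners of these proteins, 82 subunits of the same complexes and of complex II, which has no mitochondrial gene, did not pass the test either. Of 81 tested, 0 passed the adjusted threshold in limma and 0 had an unadjusted p under 0.05, against 7.71% of all genes. On the EC-Jag1KO side were nominally 68, against 50% of all genes, with a median log2 fold change of 0.15. The 81 genes were measured in the same libraries, so they are not 81 separate observations of a direction. Their summed FPKM was 6915, 5380 and 8113 in Wild-type aorta against 9056, 8795 and 5424 in EC-Jag1KO libraries. Wild-type 2 and EC-Jag1KO 3 were both low here, whereas EC-Jag1KO 3 was second highest of its group in mitochondrial reads. Estimates on the EC-Jag1KO side numbered 29 of 36 for complex I (median 0.11), 4 of 4 for complex II (0.26), 8 of 9 for complex III (0.20), 13 of 15 for complex IV (0.17) and 14 of 17 for complex V (0.14).

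For each complex the 2 nuclear genes of smallest p are given. Ndufs1, the largest subunit of complex I, was at 28.4 ± 7.9 FPKM in Wild-type aorta against 35.7 ± 3.9 in EC-Jag1KO aorta, and Ndufv2 at 49.7 ± 6.6 and 60.8 ± 11.3. The succinate dehydrogenase genes Sdhb and Sdha were at 72.8 ± 21.5 and 106 ± 25.1 FPKM against 96.8 ± 18.0 and 130 ± 13.1 FPKM. Cyc1, the cytochrome c1 of complex III, was at 100.1 ± 30.0 and 126 ± 24.4 FPKM, and Uqcrc1 at 107 ± 27.9 and 126 ± 10.5 (SD, n = 3 each, here and below). Cox4i1 and Cox5a of complex IV were at 243 ± 43.6 and 47.1 ± 16.9 FPKM in Wild-type aorta and 296 ± 72.5 and 64.4 ± 23.6 FPKM in EC-Jag1KO aorta. Atp5o and Atp5f1 of complex V were at 63.8 ± 12.3 and 46.8 ± 6.7 FPKM against 80.0 ± 14.1 and 55.2 ± 8.3 FPKM. The groups overlapped in all 10 of these genes.

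The nuclear genes that copy, read, cut, modify, stabilise and translate the mitochondrial genome gave no call either. Of 112 listed, 107 were tested and 0 passed the adjusted threshold in limma. An unadjusted p under 0.05 in limma was found for 3 on the higher side and 1 on the lower, against 7.71% of all genes. Groups did not overlap in 12 of the 107, against 13.6% of all genes, and the median log2 fold change was 0.029. For the sign counts here and in the lists that follow, 50% of all tested genes were nominally higher. Among 9 genes of transcription (7 nominally higher, median 0.082) the smallest p values were those of the methyltransferase Tfb1m, at 2.77 ± 0.53 and 3.65 ± 0.73 FPKM, and of Mterf3, at 10.1 ± 1.1 and 11.0 ± 0.86 FPKM. Neither reached an unadjusted p of 0.05.

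Replication and upkeep of mitochondrial DNA held the lowest p of these lists. Mgme1, a nuclease that trims mitochondrial DNA ends, had 3.74, 4.58 and 6.62 FPKM in Wild-type aorta against 2.04, 2.73 and 2.09 FPKM in EC-Jag1KO libraries. The groups did not overlap, and the log2 fold change was -0.84 (SE 0.19), with an unadjusted p of 0.00285 and an adjusted p of 0.402 in limma. Slc25a36, a carrier of pyrimidine nucleotides into mitochondria, was at 10.7 ± 0.59 and 13.3 ± 0.56 FPKM, with an adjusted p of 0.519 in limma. In this list 9 of 17 genes were nominally higher.

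In RNA processing and modification 14 of 23 genes were nominally higher and none had an unadjusted p under 0.05 in limma. Trmu, which modifies mitochondrial transfer RNAs, was at 6.55 ± 0.54 and 5.38 ± 0.75 FPKM, and Yrdc, another transfer RNA modifying enzyme, at 7.79 ± 0.58 and 9.89 ± 2.62 FPKM. In RNA stability and decay 13 of 18 were nominally higher. Supv3l1, the helicase of the mitochondrial degradosome, was at 5.67 ± 0.32 and 6.95 ± 0.43 FPKM, with groups that did not overlap and an adjusted p of 0.607 in limma. Fastkd3 of the same list was at 2.51 ± 0.21 and 3.22 ± 0.28 FPKM.

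Translation factors were split 10 to 8 in sign. Oxa1l, which inserts newly made proteins into the inner membrane, had 14.7, 13.1 and 15.4 FPKM in Wild-type aorta against 17.7, 17.3 and 17.7 FPKM in EC-Jag1KO libraries. These groups did not overlap, and the adjusted p was 0.566 in limma. Guf1, a translation GTPase, was at 5.13 ± 0.36 and 5.90 ± 0.82 FPKM. Of 22 aminoacyl-tRNA synthetase genes, which charge transfer RNAs, 14 were nominally higher and none had an unadjusted p under 0.05. Aars2 was at 6.30 ± 0.30 and 5.25 ± 0.65 FPKM, and Gatc at 9.87 ± 0.72 and 11.2 ± 1.6 FPKM.

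Other genes of mitochondrial mass, such as import, Krebs cycle and membrane proteins, were nominally higher in 20 of 25 cases, with a median log2 fold change of 0.12 and 0 past the adjusted threshold. Pdha1, a subunit of pyruvate dehydrogenase, had 57.7, 40.6 and 59.2 FPKM in Wild-type aorta against 86.7, 65.4 and 73.3 FPKM in EC-Jag1KO libraries. Its groups did not overlap, and its adjusted p was 0.549 in limma. Timm23, of the import channel, was at 25.4 ± 5.3 and 32.0 ± 4.0 FPKM. Of 14 regulators of mitochondrial biogenesis 10 were nominally higher. Myc had 1.84, 1.36 and 1.56 FPKM in Wild-type aorta against 2.39, 3.07 and 3.73 FPKM in EC-Jag1KO libraries, with an adjusted p of 0.402 in limma. Ppargc1b, a coactivator of mitochondrial genes, was at 2.21 ± 1.28 and 3.58 ± 0.59 FPKM, lowest in Wild-type 2.

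In a list of mitochondrial stress response genes 8 of 19 were nominally higher. An unadjusted p under 0.05 in limma was found for 4 of the 19, 1 higher and 3 lower, against 7.71% of all genes. Groups did not overlap in 3 of the 19, against 13.6% of all genes. The secreted stress factor Gdf15 was at 1.11 ± 0.12 FPKM in Wild-type aorta against 5.68 ± 1.60 FPKM in EC-Jag1KO aorta, with an adjusted p of 0.232 in limma. Phgdh, the first enzyme of serine synthesis, was at 7.74 ± 0.49 and 5.53 ± 0.35 FPKM, with an adjusted p of 0.402. No list gave a gene past the adjusted threshold.

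Nuclear RNAs of classes that mostly lack a poly(A) tail were looked at because the labels do not give how messenger RNA was selected. Whether the transcripts counted here carried a tail was not tested, so their levels do not show how RNA was selected. Of 22 listed, 9 had a row and 4 were tested, of which 2 were nominally higher. The 3 of highest mean were histone genes, Hist1h2bc at 37.0 ± 0.74 and 37.2 ± 13.3 FPKM, Hist1h1c at 28.3 ± 7.8 and 31.4 ± 13.2 FPKM, and Hist1h4h at 4.57 ± 2.15 and 4.67 ± 1.64 FPKM.

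Within the mitochondrial reads the 7 high genes took nearly everything. mt-Co1 took 37.2% to 43.5% of them, mt-Cytb 16.4% to 20.9%, mt-Nd1 12.1% to 14.9%, mt-Nd2 8.74% to 9.98%, mt-Nd5 8.62% to 9.83% and mt-Nd6 1.70% to 2.39%. mt-Nd4 took 8.34%, 8.96% and 8.36% in Wild-type libraries against 7.97%, 7.98% and 7.59% in EC-Jag1KO libraries. It was the only 1 of the 13 shares whose groups did not overlap. This was picked from 13 shares and was not tested. The shares of the low genes varied more: mt-Co2 took 0.0418% to 0.0814%, mt-Atp6 0.0345% to 0.0675%, mt-Co3 0.0380% to 0.0748%, mt-Nd3 0.0161% to 0.0304% and mt-Nd4l 0.00309% to 0.0155%. In each of these 5 genes EC-Jag1KO 3 had the lowest share and EC-Jag1KO 2 the highest. The level of mt-Nd6 over mt-Nd5, its neighbour on the other strand, was 0.777, 0.775 and 0.781 in Wild-type aorta against 0.772, 0.963 and 0.608 in EC-Jag1KO libraries. The ratio was thus close to equal in 4 libraries and apart in EC-Jag1KO 2 and EC-Jag1KO 3, on either side of them.

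EC-Jag1KO 2 and EC-Jag1KO 3 also differed in the other genes, and the difference went with gene length. Log2 of the level in EC-Jag1KO 3 over that in EC-Jag1KO 2 was -2.23 for mt-Nd4l (297 bases), -0.82 for mt-Nd3 (348 bases) and -0.40 for mt-Nd6 (519 bases). It was -0.87 for mt-Atp6, -0.87 for mt-Co2 and -0.88 for mt-Co3 (681 to 784 bases). From mt-Nd1 (957 bases) to mt-Nd4 (1378 bases) it lay between -0.15 and 0.024, and it was 0.29 for mt-Co1 (1545 bases) and 0.27 for mt-Nd5 (1824 bases). Across the 12 genes Pearson's r with log2 length was 0.86 and Spearman's rho was 0.84. This describes 2 libraries only, and the shorter genes are also those inside the copied stretch. Nuclear genes also had lower ratios when short. Their ratios were taken on FPKM + 1, which draws low genes toward 0, and those of the mitochondrial genes on FPKM. The sizes of the ratios are therefore not alike measures. The nuclear median was -0.42 for 221 genes of up to 500 bases and -0.51 for 738 genes of up to 1000 bases. It was -0.30 for 1070 genes of up to 1500 bases and 0.055 for 10124 longer genes. The medians of the mitochondrial genes in the same bins were -1.53, -0.87, -0.069 and 0.28, from 2, 5, 3 and 2 genes. The difference between the slopes was not tested.

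**Figure D5:**
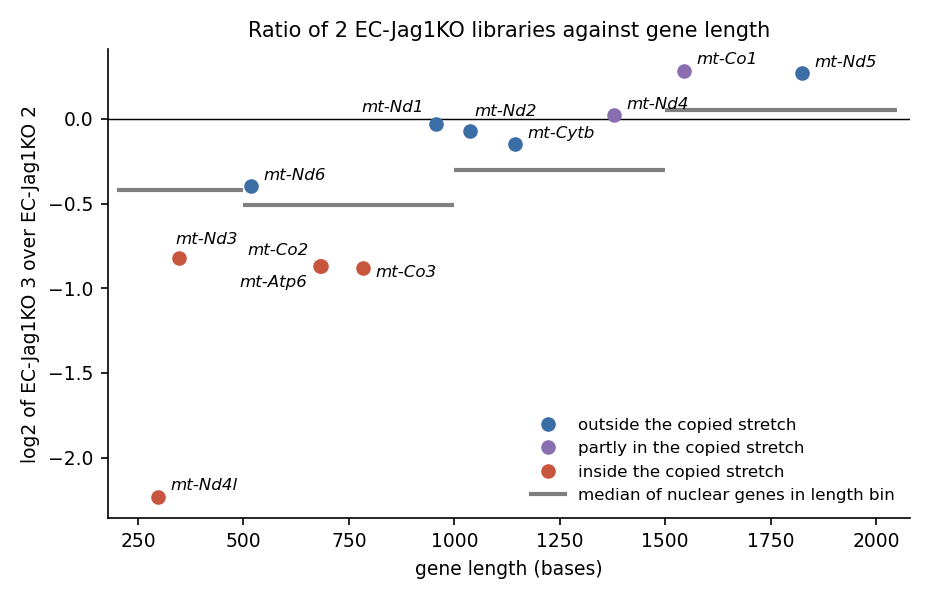
Log2 of the level in EC-Jag1KO 3 over EC-Jag1KO 2 for the 12 tested genes (points, coloured by position against the copied stretch; mt-Atp6 and mt-Co2 lie on each other) against gene length in bases, with the median of nuclear genes per length bin (grey bars, the last bin drawn to the edge). The points run from -2.23 for mt-Nd4l up to 0.29 for mt-Co1, and mt-Nd6, short but outside the copied stretch, lies at -0.40. Points are ratios of FPKM and grey bars are ratios of FPKM + 1, so their sizes are not alike measures.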

How the data were processed

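Total RNA of aorta, in 3 Wild-type and 3 EC-Jag1KO samples, was isolated with spin columns, per the labels' protocols. The authors deposited FPKM values of 35275 genes, with coordinates and gene length per the file headers. The submitters' processing notes name STAR, HTSeq, edgeR and mm10 without roles or versions. Strand setting and treatment of reads with several matches: not given in the sources used here. FPKM times gene length came out as whole reads (100% of values within 0.05 of a whole number), which recovers the depth: 19889910 to 25914325 in genes per library. The highest correlation of any pair of libraries was 0.983.

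The 12165 genes averaging 1 FPKM or more were tested as log2(FPKM + 1) for genotype with limma 3.58.1 (R 4.3.3, trended variance, Benjamini-Hochberg adjustment); folds on this scale understate low genes. The script was tested on simulated data. Sequences were compared in GENCODE M21 transcripts (Biopython 1.88). Table rows named by clone were matched to the chromosome 1 pseudogenes by Ensembl identifier. All mitochondrial genes, all copies with a mean of at least 1 FPKM and Jag1 are named. So are the 2 genes of smallest p in each nuclear list and the 3 of highest mean among the RNAs listed as non-polyadenylated. Other genes named were chosen after their values were seen. The members and the 26 lists were chosen with earlier results of these data known. Alternatives covered pseudocount, filter, scaling, variance model, recovered reads with voom, the replicate block and each library left out. Same-numbered libraries did not deviate together, so the numbers were not taken as pairs.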

Additional observations from a re-analysis of the deposited data

How the results depend on the processing

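Under each of 20 alternatives of the fit, 0 mitochondrial genes passed the adjusted threshold in limma, and the smallest adjusted p was 0.138. Among all genes 42 passed, against 0 as reported, when libraries were centred on the mitochondrial median, which was the value of mt-Nd6 in each. The number was 4 without EC-Jag1KO replicate 1, 2 without both libraries of high Xist and 1 with Xist as a covariate. The median log2 fold change of the members was 0.31 as reported, and between 0.11 (without Wild-type replicate 2) and 0.50 (without Wild-type replicate 3) with 1 library left out. With the replicate number as a block, median 0.31 and 0 calls were unchanged, with 842 genes at an unadjusted p under 0.05 against 938; the correlations of same-numbered libraries were 0.055, 0.051 and -0.050.

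Of 239 values of single genes under alternatives, 14 in 7 genes reversed. The mitochondrial median was the value of mt-Nd6 in each library, so centring on it scales every library to that gene. By construction this takes out a shift that mt-Nd6 shares with the other members. It gave -0.055 for the median of the members and -0.37 for that of all genes. Single genes were at -0.017 for mt-Nd1, -0.093 for mt-Nd2, -0.15 for mt-Co2 and -0.12 for mt-Co3. They were at -0.16 for mt-Nd4, -0.16 for mt-Cytb and -0.35 for mt-Nd4l. mt-Cytb ranged up to 0.46 and mt-Nd4l up to 0.59 with 1 library left out. mt-Cytb was at -0.089 without Wild-type 2 and -0.025 without Wild-type 2 and EC-Jag1KO 3 together, and the complex III sum, which is mt-Cytb, at -0.097 and -0.036. mt-Nd4l, with 35 to 126 reads, was at -0.010 under quantile normalization, -0.084 with voom on recovered reads, -0.23 without Wild-type 2, -0.11 without EC-Jag1KO 1 and -0.42 without EC-Jag1KO 2. The causes were not tested. With 1 library left out, the log2 ratio of summed FPKM lay at 0.11 to 0.49 for complex I, -0.097 to 0.41 for complex III, 0.16 to 0.56 for complex IV and 0.13 to 0.62 for complex V, and the difference in read share at 0.266 to 1.29 points. Groups did not overlap in 7 of 12 genes without Wild-type 3 (24% of all genes), 4 without EC-Jag1KO 3 (27.8%), 2 without EC-Jag1KO 2 (30.5%) and 4 without Wild-type 2 and EC-Jag1KO 3 together (36.8%), and in 1 gene, mt-Nd6, with a length trend removed (15.5%). The alternative that leaves ribosomal RNA genes out was not run, since no such mitochondrial row was used here. Leaving out libraries by Xist, Xist as a covariate, removal of a length trend and the pair of Wild-type 2 and EC-Jag1KO 3 were chosen after seeing the data.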

Other observations

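Of 12 ratios between mitochondrial genes, only mt-Nd5 over mt-Nd4 had groups that did not overlap, with 0.781, 0.749 and 0.783 in Wild-type libraries against 0.822, 0.826 and 0.978 in EC-Jag1KO libraries. It was picked from the 12 after its values were seen and was not tested. Both genes lie on the plus strand, and part of mt-Nd4 lies inside the stretch copied on chromosome 1.

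Copies of mt-Nd5 are also annotated, with 92.5% identity for Gm11407 and 94.9% identity for Gm4076 over the aligned part. Gm11407 was listed at 0 in all 6 libraries, and Gm4076 at 0 in 5 of them and at 0.292 FPKM in EC-Jag1KO 2.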
